A study of Mus musculus with 8 samples.

Results

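Of the 8 libraries in this mouse CD4+ T cell study, 4 came from Th17 cells made in culture, and these are compared here by the cytokines they were grown in. The rule took the raw counts of all 4 culture libraries, set IL-6, IL-1β and IL-23 (the IL-23 mix) against TGF-β and IL-6 (the TGF-β mix), and kept every gene that passed a count filter, which was 13966 of 55341 entries. Naive CD4+ T cells were stimulated for 4 days on plates coated with antibodies to CD3 and CD28, in 1 of the 2 mixes, and all cultures were then restimulated for 2 hours (PMA plus ionomycin) ahead of RNA extraction. Each mix had 1 control library (Rora_fl/fl, labelled WT, with no Cre named) and 1 Rora knockout library (Cd4_cre Rora_fl/fl, in which Cre under the Cd4 promoter removes the floxed part of Rora in T cells). The remaining 4 libraries were colon CD4+ T cells from a transfer model of colitis and enter only 1 comparison below. Cytokine doses, the number of mice and whether cells were pooled are not given in the sources used here, so the p-values measure the agreement of the control and the knockout pair, and anything shared by both cultures of a mix cannot be told apart from the mix.

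Th17 cells are helper T cells that make IL-17A and IL-17F under a set of lineage transcription factors that includes RORα, the product of Rora. IL-6 starts the programme through STAT3. TGF-β drives naive cells towards Th17 or, without IL-6, towards regulatory T cells. IL-1β signals through MyD88 and NF-κB, and IL-23 through JAK kinases and STAT3. Cells made with TGF-β and IL-6 are often called non-pathogenic and those made with IL-23 pathogenic, after their behaviour in models of autoimmune disease.

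The cultured libraries held between 15252700 and 15922696 counts. Values below are CPM (counts scaled to a common library size) adjusted by edgeR's TMM factors, always with the control library first and the knockout library second. The Th17 label was checked against marker genes: Cd3e, Cd4, Il17a, Il17f, Il23r and Ccr6 were present in all 4 libraries, with Ccr6 lowest in the knockout (11.95 and 13.3 CPM). Rora itself, the deleted gene, stood at 501 and 190 CPM in the TGF-β mix and at 152 and 59.2 CPM in the IL-23 mix, so the knockout library was below its control in both mixes. Mitochondrially encoded transcripts took 2.22% and 2.29% of counts in the TGF-β mix and 3.43% and 3.53% in the IL-23 mix, and ribosomal protein genes 3.12% and 3.16% against 5.34% and 5.02%. The part of these shifts in the results below was not tested.

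The mixes differed in most of the transcriptome. In edgeR's quasi-likelihood test with genotype as a block and Benjamini-Hochberg adjustment over all 13966 genes, 9735 genes (69.7%) passed an adjusted p of 0.05, 4992 (35.7%) higher with the IL-23 mix and 4743 (34.0%) lower. Changes of at least 2-fold were called for 2659 genes higher with the IL-23 mix (19.0%) and for 1746 lower (12.5%), and changes of at least 8-fold for 582 and 104. The median log2 difference over all tested genes, IL-23 mix minus TGF-β mix, was 0.02. Since about 1 gene in 3 was called in each direction, a gene list with such shares does not stand out from the background. Each count of list members below is to be read against these shares of 35.7% higher and 34.0% lower. Some lists share members, such as Ccl20 (Th17 core and chemokines) and Gpr15 (homing receptors and TGF-β response genes). Counts of different lists are therefore not independent.

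The control and the knockout pair gave like differences. Among 10374 genes with 5 CPM in at least 1 library, 1586 (15.3%) in the control pair and 1589 (15.3%) in the knockout pair were at least 2-fold higher with the IL-23 mix, and 1394 were in both. At least 2-fold lower were 1346 (13.0%) and 1279 (12.3%), with 1093 in both, and no gene moved that far in opposite directions. Those are ratios of 1 library to 1 library and carry no test. The correlation of the log2 ratios was 0.94 across 13966 genes, which are not independent replicates.

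**Figure D1:**
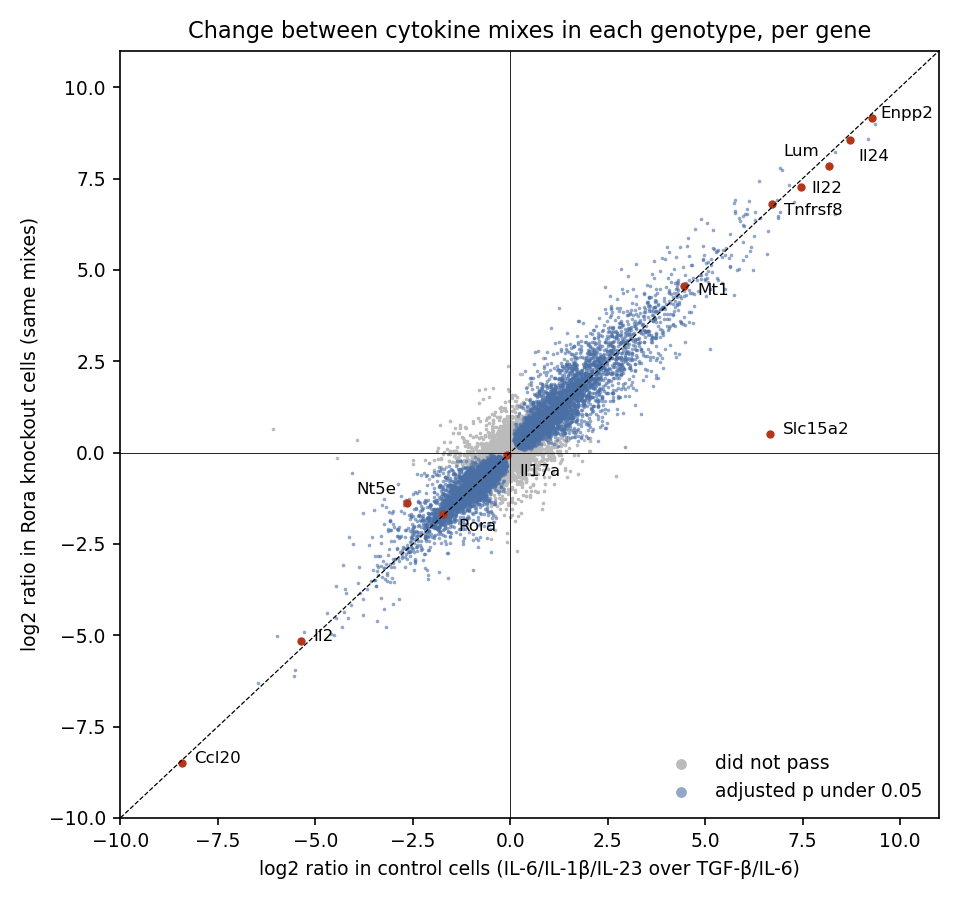
Log2 ratio of the IL-23 mix to the TGF-β mix in control cells (x axis) and in Rora knockout cells (y axis), 1 point per tested gene, blue where the adjusted p is under 0.05, red for labelled genes, dashed line where both ratios are equal. Ccl20 and Il2 lie at the lower left, Il24 and Enpp2 at the upper right, Il17a near 0, and Slc15a2 far from the line.

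The IL-17 cytokines did not move as a pair. Il17a stood at 1813 and 962 CPM in the TGF-β mix and at 1708 and 925 CPM in the IL-23 mix. The groups overlapped, and the log2 difference of -0.07 ± 0.07 (SE, 4 libraries) did not pass edgeR's quasi-likelihood test (Benjamini-Hochberg adjusted p = 0.35). Il17f was lower with the IL-23 mix, at 3165 and 2192 against 1950 and 1035 CPM, with no overlap (log2 difference -0.89 ± 0.10, adjusted p = 0.00010). Without the control library of the TGF-β mix Il17f lost its call at -0.57. It stood at -1.37 without the control and at -0.46 without the knockout library of the IL-23 mix. No genotype term can be fitted there, and Il17f was lower in the knockout library of each mix. The genotype difference in Il17f therefore entered these values. Il21, a STAT3-activating cytokine made by Th17 and follicular helper cells, was 2.83-fold lower, with a log2 SE of 0.10, from 1948 and 1771 to 595 and 725 CPM.

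Il22 and Il24, both of the IL-10 family, were low with TGF-β and IL-6. Il22, which acts on epithelium, had 4 and 3 counts in the TGF-β mix and 1026 and 752 in the IL-23 mix, a log2 difference of 7.99 ± 0.18. Il24 had 31 counts in each TGF-β library and 13461 and 12005 in the IL-23 mix (log2 difference 8.73 ± 0.11, 425-fold). Within each mix both genotypes lay close together for these genes. Csf2, which encodes GM-CSF, was 3.08-fold higher with the IL-23 mix, at 3.49 and 2.45 against 11.2 and 7.19 CPM. Ifng had 3 and 17 counts in the TGF-β mix and 2 and 9 in the IL-23 mix, did not pass the count filter and was not tested.

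**Figure D2:**
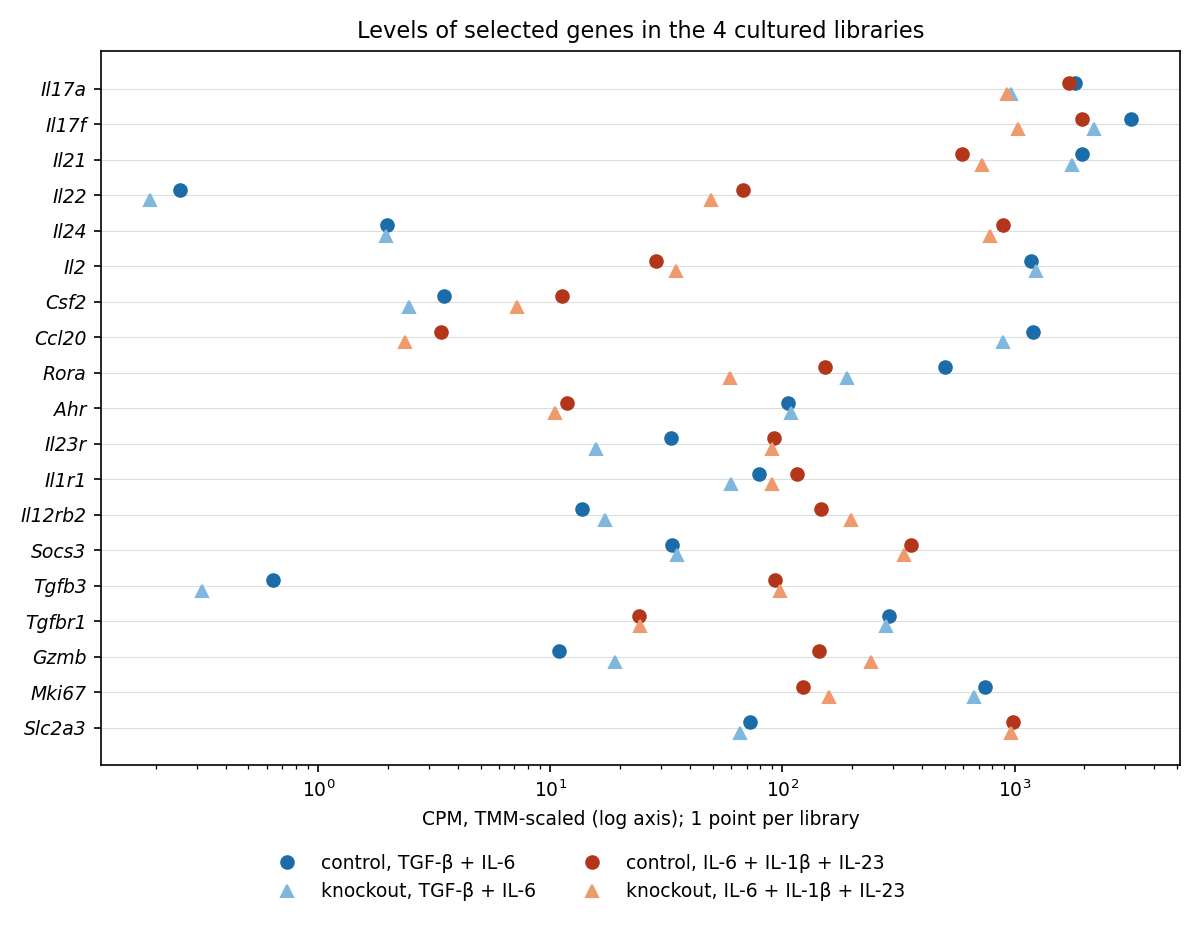
Level of 19 genes in CPM (log axis), 1 point per library, circles for control and triangles for knockout, blue for the TGF-β mix and red for the IL-23 mix. The colours separate for Il22, Il24, Il2, Ccl20, Socs3 and Tgfb3 and overlap for Il17a.

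The transcription factor genes Rora and Ahr were lower with the IL-23 mix. Rora fell by 1.70 ± 0.07 on the log2 scale, in controls from 501 to 152 CPM, and the fall in knockout cells from 190 to 59.2 CPM was of like size. Ahr, the aryl hydrocarbon receptor, which senses dietary and microbial ligands, went from 105 and 108 to 11.8 and 10.5 CPM (9.63-fold lower). In neither gene did the mixes overlap, though for Rora the knockout TGF-β library (190 CPM) was not far above the control IL-23 library (152 CPM). Of 5 tested targets of this receptor, Il22 and Tiparp were higher with the IL-23 mix, Cyp1b1 was lower (31 and 36 against 9 and 7 counts, with an adjusted p of 0.0503 in DESeq2), and Cyp1a1 and Ahrr did not pass edgeR's test. Without the control library of the TGF-β mix, Rora's difference was -0.85, and without the control library of the IL-23 mix it was -2.54. These fits had no genotype term and left that mix with its knockout library only, so the genotype difference in Rora entered them.

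Several other lineage factors changed. Foxp3, which defines regulatory T cells, was low in all libraries and 5.65-fold lower with the IL-23 mix (71 and 93 against 9 and 19 counts), a log2 difference of -2.50 that was -3.11 without the knockout IL-23 library. Ikzf3, which encodes Aiolos, was 5.96-fold lower, at 115 and 114 against 15.99 and 22.7 CPM. Maf had a small difference of -0.24 ± 0.06, which lost its call at -0.16 without the control TGF-β library, at -0.16 without the knockout IL-23 library and at -0.25 with the spread from the colon replicates (adjusted p = 0.083 in edgeR's quasi-likelihood test). Higher with the IL-23 mix were Hlx, a Th1-linked homeobox gene (6 and 4 against 383 and 365 counts), Satb1, a chromatin organiser (3.75-fold), Nfil3 (4.70-fold) and Runx3 (3.42-fold). Tbx21, the Th1 master regulator, at 34.1 and 41.8 against 33.6 and 61.6 CPM, overlapped between mixes (log2 difference 0.29, adjusted p = 0.088 in edgeR's quasi-likelihood test). Tbx21 did pass in 3 of 10 alternative settings: under the stricter filter (0.35, adjusted p = 0.0085), with the spread from the colon replicates (0.26, adjusted p = 0.021) and without the control IL-23 library (0.70, adjusted p = 0.00096). Without the knockout IL-23 library its sign turned, at -0.18. Of 32 tested lineage factors 12 were higher and 14 lower, with a median of -0.03, so the list as a whole was split as the background was.

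The published Th17 signatures, which other studies derived by comparing such cultures, were split by mix. Of 20 tested Th17 core genes 6 (30%) were higher and 10 (50%) lower with the IL-23 mix, against 35.7% and 34.0% of all tested genes. Their median log2 difference was -0.30. Of the 16 genes of the pathogenic signature 11 were higher and 3 lower, with a median of 1.18. Gzmb, which encodes the cytotoxic protease granzyme B, rose most after Il22, from 10.9 and 19.1 to 144 and 241 CPM (12.9-fold). Casp1, Ccl5, Lgals3, Il7r, Stat4, Icos, Csf2, Cxcl3 and Il3 were also higher, although Il3 lost its call in 5 alternative settings and ranged from 0.19 to 1.26 with 1 library left out (0.74 with all 4). The 3 lower members were Ccl3, Ccl4 and Lag3. Of the 7 genes of the non-pathogenic signature 4 were lower (Il6st, Ahr, Ikzf3 and Maf), Il9 and Il10 did not pass, and Il1rn, the IL-1 receptor antagonist, was higher at 5.66 and 5.60 against 37.3 and 33.5 CPM.

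The promoters of 4 genes are shown: Socs3, a feedback gene of the IL-6 pathway that was 10.04-fold higher with the IL-23 mix, Ccl20, which had the largest fall among genes at 5 CPM or more (365-fold), and the defining cytokines Il17f, which fell, and Il17a, which did not pass. Each window is 300 bases of GRCm38.p6 from RefSeq, written 5′ to 3′ on the gene's strand, from 250 bases before to 50 after the start. Capitals mark matches to 4 of the 5 motifs searched: the STAT palindrome TTCNNNGAA, the AP-1 site TGANTCA, the ROR core motif AGGTCA and the NF-κB site GGG then any 2 letters then TTTCC, on both strands. The fifth, the SMAD palindrome GTCTAGAC, had no match in these windows.
Socs3 (chr11:117969317-117969616, minus strand): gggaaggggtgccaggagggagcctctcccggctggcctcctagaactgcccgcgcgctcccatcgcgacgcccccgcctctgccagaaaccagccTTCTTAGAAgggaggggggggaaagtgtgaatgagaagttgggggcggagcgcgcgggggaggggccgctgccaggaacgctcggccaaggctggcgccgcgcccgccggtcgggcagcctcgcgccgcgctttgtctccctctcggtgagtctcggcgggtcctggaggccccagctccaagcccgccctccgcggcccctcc
Ccl20 (chr1:83116516-83116815, plus strand): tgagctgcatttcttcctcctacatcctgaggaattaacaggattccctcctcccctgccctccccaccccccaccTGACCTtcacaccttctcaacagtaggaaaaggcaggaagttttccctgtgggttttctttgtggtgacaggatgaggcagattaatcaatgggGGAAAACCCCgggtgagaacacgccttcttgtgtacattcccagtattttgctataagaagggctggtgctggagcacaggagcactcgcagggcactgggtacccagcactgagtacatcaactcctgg
Il17a (chr1:20730655-20730954, plus strand): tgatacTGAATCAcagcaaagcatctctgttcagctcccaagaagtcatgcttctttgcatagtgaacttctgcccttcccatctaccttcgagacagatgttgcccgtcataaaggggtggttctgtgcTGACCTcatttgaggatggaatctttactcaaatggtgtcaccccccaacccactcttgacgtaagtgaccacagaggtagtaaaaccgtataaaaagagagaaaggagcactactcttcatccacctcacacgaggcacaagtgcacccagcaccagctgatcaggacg
Il17f (chr1:20784221-20784520, minus strand): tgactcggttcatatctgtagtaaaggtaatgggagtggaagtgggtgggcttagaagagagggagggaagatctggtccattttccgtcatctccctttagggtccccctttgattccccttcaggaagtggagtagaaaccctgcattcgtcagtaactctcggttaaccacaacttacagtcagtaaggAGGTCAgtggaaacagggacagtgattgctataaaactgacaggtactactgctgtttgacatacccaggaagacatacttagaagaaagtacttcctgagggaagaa
Socs3 had a STAT match at -154 from the start, Ccl20 a ROR core motif at -174 and an NF-κB match at -80, both on the other strand, Il17a an AP-1 match at -244 and a ROR core motif at -120, and Il17f a ROR core motif at -58. A match is a description of the letters, not evidence of binding. Shares are of genes with a match in any of their windows. Among the 9530 tested genes with a window, 8.27% held the STAT motif, 6.17% AP-1, 14.8% the ROR core motif, 2.11% NF-κB and 0.283% SMAD. For the genes called at least 2-fold higher with the IL-23 mix (1777 with a window) the shares were 8.84%, 9.12%, 17.8%, 2.25% and 0.281%. For those at least 2-fold lower (1182 with a window) they were 7.11%, 6.35%, 14%, 2.37% and 0.338%.

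In the TGF-β pathway, the type I receptor gene Tgfbr1 was lower and the ligand gene Tgfb3 higher with the IL-23 mix. Tgfbr1, the kinase that phosphorylates Smad2 and Smad3, stood at 288 and 278 CPM with TGF-β present and at 24.2 and 24.3 CPM in the IL-23 mix (log2 difference -3.55 ± 0.08). Tgfbr2, which binds the ligand, was 1.83-fold higher with the IL-23 mix. Tgfb3 went from 10 and 5 counts to 1411 and 1490 (log2 difference 7.63 ± 0.18), while Tgfb1 did not pass at 705 and 699 against 705 and 637 CPM. Lrrc32 (GARP), which holds latent TGF-β on the cell surface, was 7.87-fold higher, Inhba, an activin subunit, 4.16-fold, and Ltbp3, a latent TGF-β binding protein, 38.03-fold. Of 11 tested ligand and activation genes 6 were higher and 2 lower (median 2.06), and of 15 receptors and Smads 6 were higher and 7 lower (median -0.11). Under the stricter filter, at 5 CPM or more in 2 libraries, where fewer members were tested, these medians were 1.05 and -0.23.

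Feedback and target genes of TGF-β did not follow 1 direction. Of 11 inhibitors and feedback genes 2 were higher and 7 lower, all by less than 2-fold, with Skil (1.83-fold), Pmepa1 (1.84-fold), Ski (1.29-fold) and Tgif1 (1.295-fold) lower in the IL-23 mix. Smad7, the inhibitory Smad, was 1.41-fold higher with the IL-23 mix, at 30.8 and 40.8 against 51.6 and 49.0 CPM, and its log2 difference was 0.29 without the control TGF-β library against 0.50 with it. Of 20 tested response genes 9 (45%) were higher and 10 (50%) lower, against 35.7% and 34.0% of all tested genes. Gpr15, a colon homing receptor, Id1, Nt5e and Foxp3 were lower with the IL-23 mix, whereas Tgm2 was 4.96-fold higher there. Itgae, the integrin chain CD103, had 19 to 24 counts in each library and did not pass.

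IL-6 was in both mixes, yet its receptor and feedback genes differed. Il6st, the signalling chain gp130, fell by 3.21 ± 0.09 on the log2 scale, from 95.6 and 92.7 to 10.05 and 10.3 CPM, and Il6ra was 1.80-fold lower with the IL-23 mix. Stat3 was 2.13-fold higher there, at 329 and 329 against 709 and 691 CPM. Socs3, the STAT3-induced inhibitor of gp130 signalling whose promoter is printed above, stood at 33.6 and 35.0 CPM in the TGF-β mix and at 356 and 332 CPM in the IL-23 mix. Socs1 was 3.29-fold higher and Socs2 2.54-fold lower. Of 16 SOCS and feedback genes 8 (50%) were higher and 7 (43.8%) lower, against 35.7% and 34.0% of all tested genes.

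All 3 chains that serve IL-12 and IL-23 were higher with the IL-23 mix. Il23r stood at 33.2 and 15.7 CPM with TGF-β and IL-6 and at 91.5 and 89.8 CPM with the IL-23 mix (log2 difference 1.94 ± 0.21). Il12rb2, the IL-12 receptor chain that marks Th1 cells, was 11.1-fold higher, at 13.7 and 17.2 against 146 and 197 CPM. The shared chain Il12rb1 was 1.42-fold higher, and Il27ra was 1.42-fold lower. Neither mix held IL-12.

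Several IL-1 family receptors differed more between mixes than the signalling receptor for IL-1. Il1r1, the signalling receptor, was 1.47-fold higher with the IL-23 mix, at 79.6 and 60.3 against 116 and 89.7 CPM, and its log2 difference of 0.56 came down to 0.36 without the knockout TGF-β library and to 0.37 without the control IL-23 library. The decoy receptor Il1r2 was 5.69-fold higher and the inhibitory receptor Sigirr 2.39-fold higher. Il1rap, the accessory chain that Il1r1 needs, was 4.08-fold lower. Il1rl2, the IL-36 receptor, was 5.02-fold higher and both IL-18 receptor chains were higher (Il18r1 3.45-fold, Il18rap 2.58-fold). Of 19 tested genes 10 were higher and 6 lower (52.6% and 31.6%, against 35.7% and 34.0% of all tested genes).

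Of 20 NF-κB genes 11 (55%) were lower with the IL-23 mix and 7 (35%) higher, against 34.0% and 35.7% of all tested genes. At 2-fold or more, 5 were higher and 4 lower. Nfkbid, the nuclear inhibitor-like protein IκBNS, went from 1110 and 1276 to 117 and 142 CPM (9.21-fold lower), Nfkbie was 4.26-fold lower and Nfkb1 2.41-fold lower. Nfkbiz, which encodes IκBζ, a cofactor of Il17 transcription, was 2.13-fold higher instead, as were Bcl3 and the inhibitor Tnip1 (2.995-fold). The median of the list was -0.23.

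**Figure D3:**
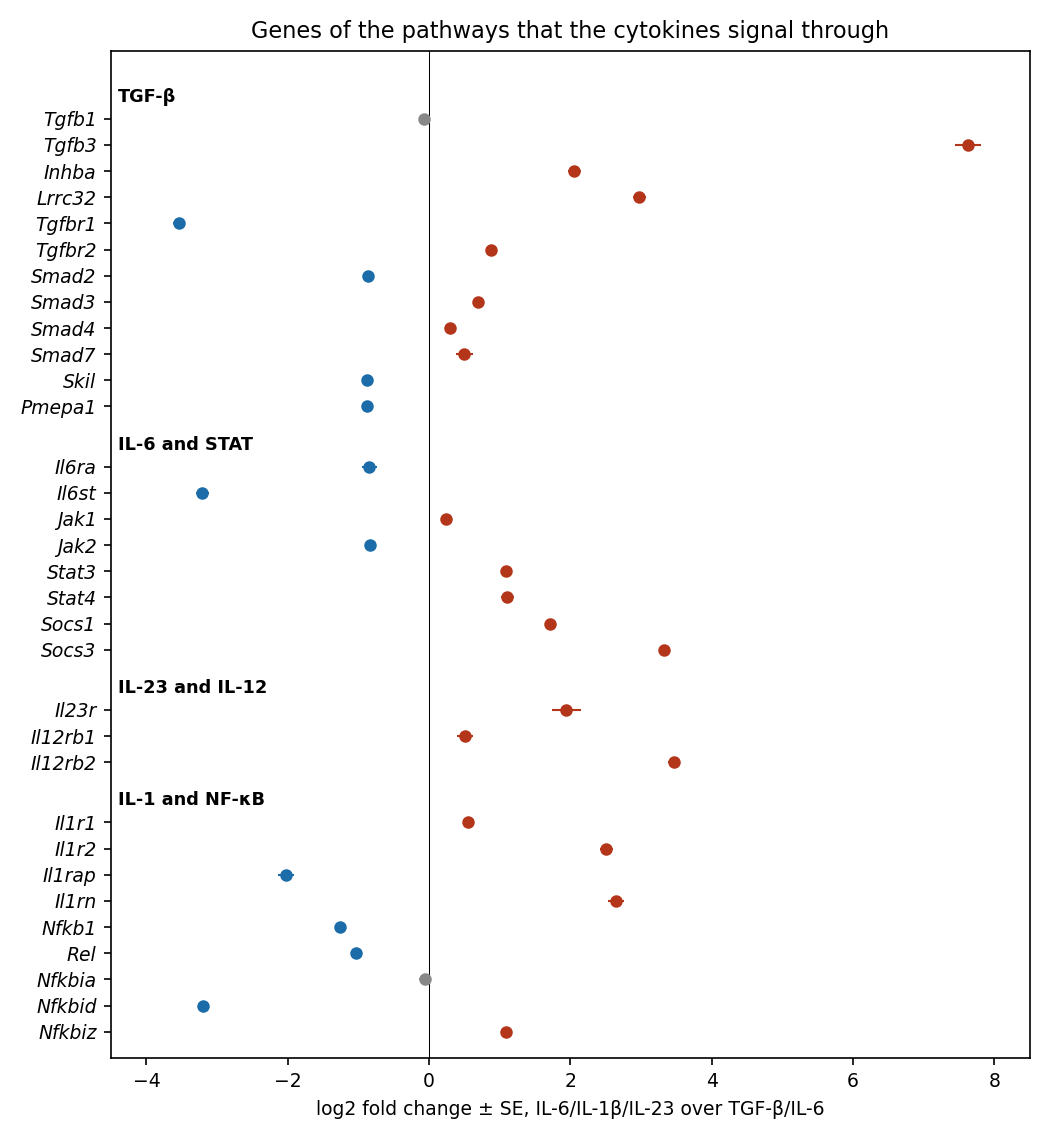
Log2 difference ± SE from the fit of 4 libraries for genes of the pathways that the added cytokines use, red where higher and blue where lower with the IL-23 mix, grey where the test was not passed. Tgfb3 lies far to the right, and Tgfbr1, Il6st and Nfkbid lie farthest to the left.

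Most receptors for other cytokines were higher with the IL-23 mix: 17 of 20 tested receptors passed in that direction and none in the other, with a median of 0.83. Il13ra1 had 4 and 8 counts against 382 and 400, Il21r, the receptor for IL-21, was 3.20-fold higher, Il7r 3.60-fold and Il4ra 1.84-fold. Il2ra, the high-affinity IL-2 receptor chain, did not pass, at 3483 and 3425 against 3778 and 3606 CPM. Among the cytokines themselves, Il2, the T cell growth factor, fell by 5.26 ± 0.09 on the log2 scale, from 1174 and 1238 CPM to 28.4 and 34.6 CPM, with the mixes far apart in both genotypes. Areg, an epidermal growth factor receptor ligand, was 10.5-fold lower, Ebi3, a chain shared by IL-27 and IL-35, 11.9-fold higher, and Il13, a Th2 cytokine, 10.8-fold higher from 14 and 8 counts. Over 19 tested interleukins and colony-stimulating factors 9 (47.4%) were higher and 5 (26.3%) lower, against 35.7% and 34.0% of all tested genes.

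Chemokines were mostly lower. Ccl20, the ligand of CCR6 and a recruiter of other Th17 cells, stood at 1198 and 892 CPM in the TGF-β mix and at 3.37 and 2.35 CPM in the IL-23 mix, a fall of 8.51 ± 0.11 on the log2 scale. Ccr6, its receptor, did not pass at 25.5 and 11.95 against 23.7 and 13.3 CPM, and the sign of its difference near 0 changed with the scaling. Ccl4 was 6.77-fold lower, Ccl3 3.34-fold lower (log2 difference -1.74, or -1.13 without the control and -2.50 without the knockout IL-23 library) and Xcl1 26.4-fold lower, with 53 and 176 counts in the TGF-β mix against 3 and 5. The log2 difference of Xcl1 was -4.72, but -5.36 without the control and -3.65 without the knockout TGF-β library. Ccl5 was 4.22-fold higher. Over 10 tested chemokines 2 (20%) were higher and 6 (60%) lower, against 35.7% and 34.0% of all tested genes.

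Homing receptors were split. S1pr1, needed to leave lymphoid tissue, was 10.2-fold higher with the IL-23 mix (4.51 and 4.15 against 43.2 and 45.5 CPM), as were Cxcr4 (4.23-fold), Gpr183 (4.13-fold) and Ccr7 (1.98-fold). Gpr15 had 142 and 111 counts against 5 and 2 (log2 difference -5.08, or -5.85 without the control IL-23 library), and Ccr4, which guides cells to skin and lung, was 2.97-fold lower. Of 22 tested receptors 12 were higher and 7 lower (54.5% and 31.8%, against 35.7% and 34.0% of all tested genes).

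Ligands of the TNF family were split, with more lower than higher in the IL-23 mix. Cd40lg, which licenses B cells and dendritic cells, stood at 443 and 428 against 77.6 and 111 CPM (4.67-fold lower), Tnfsf14 was 3.50-fold lower, Tnfsf11 (RANKL) 3.36-fold, Tnfsf9 4.79-fold and Tnf 2.64-fold. Tnfsf4 (OX40L), a costimulatory ligand, was higher, with 345 and 453 counts in the TGF-β mix against 645 and 592. Of 11 tested ligands 6 were lower and 3 higher (median -1.40). The receptors of this family were split, 9 higher (50%) and 6 lower (33.3%) of 18, against 35.7% and 34.0% of all tested genes. Tnfrsf8, the activation receptor CD30, had 43 and 40 counts in the TGF-β mix against 4523 and 4488 in the IL-23 mix (112-fold higher). Tnfrsf9 (4-1BB) was 7.66-fold higher.

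Genes of T cell activation were also split. Of 23 immediate-early genes 14 were lower and 8 higher. Nr4a3, an orphan nuclear receptor induced by antigen receptor signals, stood at 788 and 794 against 35.6 and 62.9 CPM (16.5-fold lower), Nr4a1 was 2.74-fold lower, Nfatc1 3.54-fold and the signalling inhibitor Spry1 9.49-fold. Egr1 and Dusp5 were higher with the IL-23 mix, by 2.34-fold and 2.37-fold. Among AP-1 genes Batf3 was 15.1-fold higher and Junb 1.80-fold higher, Batf, a Th17 pioneer factor, 1.35-fold lower, and 6 of 13 passed in each direction. The inhibitory receptors were split too: Tigit was 9.97-fold higher, Pdcd1 (PD-1) 2.12-fold lower and Lag3 2.21-fold lower, and Cd80, a ligand of CD28 and CTLA-4, was 11.01-fold higher.

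Genes linked to other helper lineages were mixed, apart from the Th1 list. Of 14 tested Th1-linked genes 12 were higher with the IL-23 mix and 1, Fasl, was lower (median 1.51), while Ifng did not pass the count filter and Tbx21 did not pass the test as fitted. Of 13 follicular helper genes 8 were lower and 5 higher. Pou2af1, a B cell and follicular helper coactivator, went from 334 and 335 to 22.8 and 23.1 CPM (14.6-fold lower), Slamf6 was 2.74-fold lower and Bcl6 1.72-fold lower. Of 12 cytotoxic genes 8 (66.7%) were higher and 4 (33.3%) lower. Prf1, the pore-forming perforin, stood at 9 and 12 against 97 and 140 counts, and Serpinb6b was 10.4-fold higher. Of 16 naive and memory genes 12 were higher and 4 lower, the lower ones including Bach2, a repressor that keeps T cells naive (2.31-fold). The Treg list had 8 higher (44.4%) and 5 lower (27.8%) of 18, and the Th2 list 5 (41.7%) and 3 (25%) of 12. Over all tested genes the shares were 35.7% and 34.0%.

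Proliferation genes were lower with the IL-23 mix almost throughout. Of 34 replication genes 33 were lower and 1, Rfc3, was higher (median -1.82), and of 26 mitosis genes 25 were lower and none higher (median -1.48). The helicase subunit Mcm2 stood at 403 and 422 against 81.3 and 87.0 CPM (4.90-fold lower), and the ribonucleotide reductase subunit Rrm2 was 4.03-fold lower. Mki67, which encodes the proliferation antigen Ki-67, stood at 749 and 671 against 122 and 159 CPM, and Ccna2, cyclin A2, was 3.98-fold lower. Cdkn1a, the inhibitor p21, was 3.21-fold higher. In bulk libraries fewer cells in cycle and less RNA per cell cannot be told apart.

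Glycolysis and hypoxia-linked genes were higher. Of 25 tested glycolysis genes 21 were higher and 2 lower (median 0.91), led by the glucose transporter Slc2a3 at 72.7 and 65.4 against 981 and 966 CPM (14.1-fold), with Aldoa 2.999-fold and Gpi1 2.84-fold higher. Slc16a1, a lactate transporter, and Pfkfb3 were the 2 lower genes. Of 18 HIF1-linked genes 16 were higher and 1 lower (median 2.00), while Hif1a itself did not pass, at 2013 and 1830 against 2039 and 2145 CPM. P4ha2, a collagen prolyl hydroxylase, was 17.3-fold higher, Ero1l 5.08-fold, Ddit4, an inhibitor of mTORC1, 6.04-fold and Ndrg1 3.74-fold.

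Other metabolic lists showed smaller or mixed differences. Respiratory chain genes of the nucleus had 16 higher and 15 lower of 48, none by 2-fold, and a median of 0.01. The share of counts given above took all mitochondrially encoded entries. Of the 13 in the list 2 were higher and 6 lower, and these 13 summed to 21170 and 21888 against 24691 and 24393 CPM. Among them mt-Co1, a cytochrome oxidase subunit, was 1.88-fold higher, at 7219 and 6959 against 13075 and 13523 CPM, whereas mt-Cytb was 1.39-fold lower. One-carbon enzymes Shmt1 (4.81-fold) and Mthfd1 (3.85-fold) and the glutamine carrier Slc1a5 (2.28-fold) were lower, although the whole ATF4 and serine list had 13 higher and 10 lower of 28. Of 23 sterol genes 14 were higher and 3 lower (median 0.42), with the sterol enzyme Msmo1 2.49-fold higher. In the adenosine list Entpd1 (CD39) was 11.7-fold higher, and Slc29a1, a nucleoside transporter, 4.94-fold lower.

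Interferon-stimulated genes were higher with the IL-23 mix in 31 of 35 tested cases, and Ifit2 and Gbp5 were lower. The median was 2.50, or 2.44 with 2 genes that had no count in the TGF-β mix set at their lower bound. Oas3, an antiviral RNA sensor, stood at 2.86 and 2.89 against 71.9 and 80.1 CPM (26.3-fold), Irgm1 was 7.54-fold higher, Gbp4 13.1-fold, Zbp1 5.30-fold and Irf7, a master regulator of interferon genes, 15.8-fold. Stat2, which carries the interferon signal, was 5.66-fold higher. Gbp2 did not pass, at 647 and 676 against 593 and 821 CPM. The members summed to 1030 and 1097 against 1715 and 2255 CPM. Under the filter of 5 CPM or more in 2 libraries fewer members were tested, and 20 passed as higher. The libraries of the IL-23 mix alone can meet that filter, so it is no separate support.

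**Figure D4:**
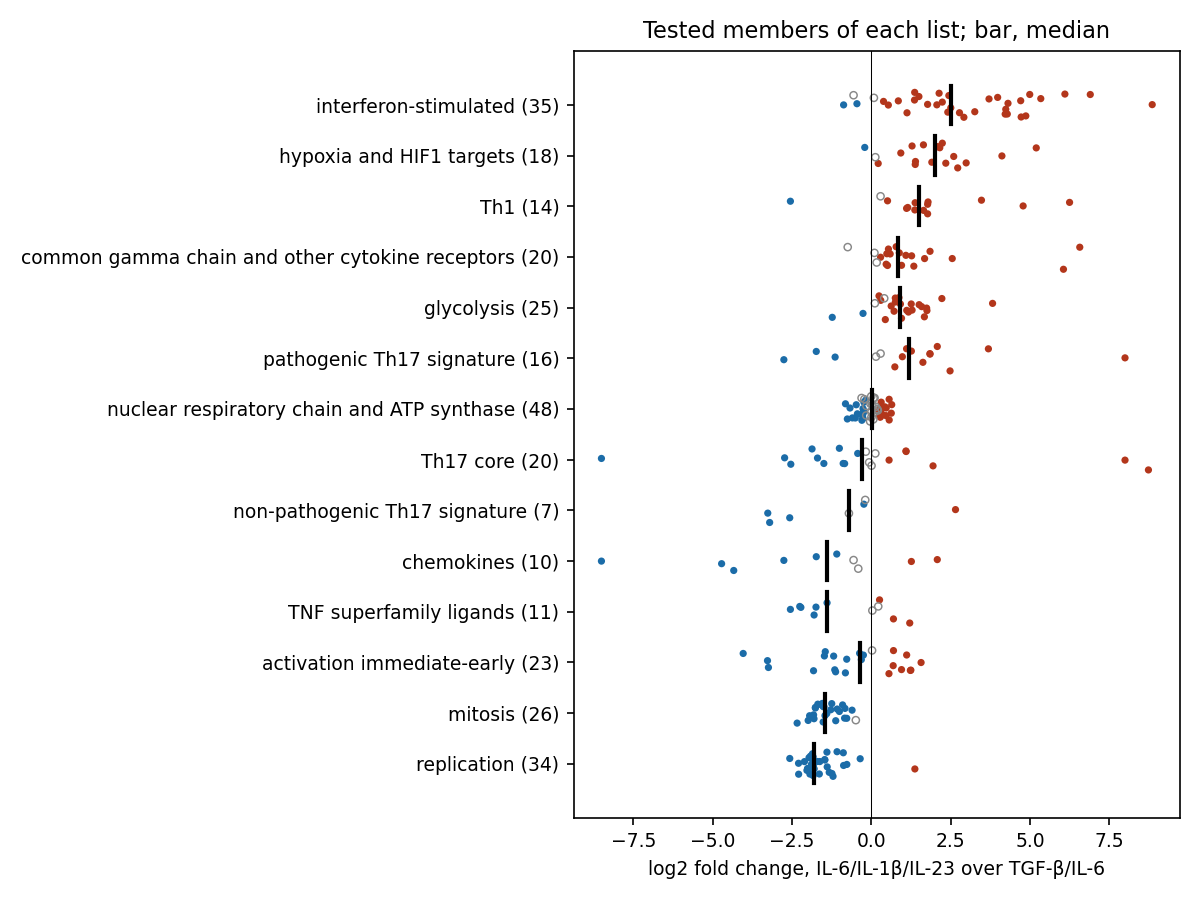
Log2 difference of each tested member (points; red higher, blue lower, open grey not passed) of 14 gene lists, with the number tested after the list's name and a black bar at the median. Replication and mitosis genes lie left of 0 with 1 exception past the test, Rfc3, and interferon, hypoxia and glycolysis genes lie mostly to the right.

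Many of the largest differences were in genes with few or no counts in 1 of the mixes. Among the 12 largest higher with the IL-23 mix, Adora3, an adenosine receptor, had no count in the TGF-β mix and 165 and 167 counts in the IL-23 mix, at least 57.5-fold higher when the TGF-β mix is set at 3 counts per library. On the same basis Zbtb7c was at least 53.4-fold higher, Nyap2 and Pmp22 each at least 45.9-fold and Stfa2 at least 39.0-fold. Cd93 had 1 count in each TGF-β library against 1910 and 1483 (ratio 1764, 95% counting interval 488 to 14568), and Ermn 0 and 1 against 1120 and 1122 (ratio 2331, 418 to 92094). Gdpd2 had 1 count in all against 195 and 199 (ratio 410, 73.1 to 16218). These intervals cover counting error only.

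Enpp2, which encodes autotaxin, the enzyme that makes lysophosphatidic acid, had 11 and 13 counts against 7858 and 8326, a log2 difference of 9.44 ± 0.12. Abcc9, a potassium channel subunit, was higher by 8.97 ± 0.17, from 3 counts in each TGF-β library. Ptpn14, a phosphatase, had 3 and 1 counts against 603 and 619 and was higher by 8.22 ± 0.24, or by 9.13 without the control TGF-β library. Il24 completed the 12. In each of them both libraries of 1 mix lay apart from both libraries of the other. This follows from the rule that picked them for size, call and direction, and is no separate result.

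Among the 12 largest in the other direction, Ccl20 was followed by Gli3, a Hedgehog pathway factor, with 142 and 139 counts against 1 and 0 (ratio 270, 48.1 to 10715), Daw1 with 138 and 126 against 1 and 0 (ratio 254, 45.2 to 10069) and Samd4 with 126 and 132 against 0 and 2 (ratio 124, 34.0 to 1030). Sema6d, a semaphorin, was 106-fold lower, Nav2 30.8-fold, Tbc1d4, a regulator of glucose transporter traffic, 23.5-fold, Ttbk1 21.2-fold and Akr1c18, a progesterone-metabolising enzyme, 21.2-fold. Il2, Gpr15 and Adad1 made up the rest. Daw1 (chr1:83159752-83210574) lies next to Ccl20 (chr1:83116766-83119167), and Adad1 (chr3:37063527-37121930) overlaps Il2 (chr3:37120523-37125959) on the opposite strand in GENCODE M21 (GRCm38). The strand setting of the authors' counting is not given in the sources used here, so counts of Adad1 and Il2 cannot be fully told apart.

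Some markers of other cell types were higher with the IL-23 mix, while others of the same lists had no counts. Summed markers of conventional T cells ran from 7997 to 8585 CPM. Macrophage markers summed to 2.35 and 2.77 against 35.6 and 33.6 CPM, carried by Cd68 and Mrc1, while 12 of 14 stayed under 1 CPM in every library, with Lyz2, C1qa, C1qb and C1qc at 0. Neutrophil markers summed to 3.37 and 3.90 against 79.8 and 96.1 CPM through Ly6g, while S100a8 and S100a9 were at 0 in all 4. Outside that list, the receptor genes Cxcr2 (0 and 1 against 96 and 99 counts) and Cxcr1 (12 and 11 against 259 and 257) were also higher. Both were chosen after their values were seen. Dendritic cell markers summed to 53.4 and 42.8 against 339 and 321 CPM mainly through H2-Ab1, Cd74 and Batf3, with 4 of 8 tested members higher and 1 lower, and with Clec9a and Siglech at 0. Fibroblast markers summed to 1.78 and 2.08 against 448 and 413 CPM through Lum and Dcn, with all 3 tested members higher, Col3a1 at 0 and Col1a1 at most 1.59 CPM. B cell markers summed to 14.4 to 20.9 CPM, mostly Ighm, and epithelial markers to 17.9 and 18.0 against 9.1 and 7.7 CPM, mostly Epcam, which was 2.64-fold lower. Of the 2 tested epithelial markers, the other was higher (log2 difference 1.59). Cd8a was at 0 in all 4 libraries, and markers of NK and innate lymphoid cells summed to 0.51 to 1.26 CPM. The part of such cells in the differences between mixes was not tested.

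Whether the Rora deletion altered the response to the mix was tested on the difference of differences. The 4 cultured libraries leave no residual for this, so the spread came from the colon replicates in a fit of all 8 libraries, on the assumption that cultures vary like them. Of 15836 genes 5 passed edgeR's quasi-likelihood test (0.0316%), against 496 at an unadjusted p under 0.05. Nt5e, the ectonucleotidase CD73, which makes adenosine from AMP, stood at 242 and 56.1 CPM in the TGF-β mix and at 38.3 and 21.6 CPM in the IL-23 mix. It was thus lower with the IL-23 mix in both genotypes (log2 difference -2.11 ± 0.25), by less in the knockout. Without the control TGF-β library Nt5e stood at -0.92, without the knockout TGF-β library at -3.03 and without the control IL-23 library at -2.78. These fits had no genotype term, so the genotype difference in Nt5e entered them. Its difference of differences was 1.27 ± 0.17 (log2, adjusted p = 0.035 in edgeR's quasi-likelihood test). Slc15a2, a peptide transporter, had 0 counts in the control TGF-β library against 145, 196 and 200 in the others (adjusted p = 2.6e-04). The remaining 3, Gm8210, Gm8325 and Gm42047, are 2 pseudogenes and a long non-coding RNA. Leaving out 1 colon library in turn gave 8 to 28 genes.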

How the data were processed

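Per the labels' protocols, RNA was sequenced from 4 cultured Th17 libraries (1 control and 1 Rora knockout per mix). The deposited values are raw counts per gene, 1 library per file, with gene symbols. Trim Galore, Bowtie2, featureCounts, edgeR, DESeq2 and build mm10 are named in the submitters' processing notes without roles or versions, and the annotation and strand setting are not given in the sources used here. Of 55341 entries, 26 had been turned into dates (0.232% to 0.269% of counts) and stayed out, and the other 55315 matched symbols of GENCODE M21, from which gene positions were taken.

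The counts were filtered with filterByExpr, scaled with TMM and tested with edgeR 4.0.16 in R 4.3.3 (quasi-likelihood, terms for genotype and mix, 1 residual degree of freedom, Benjamini-Hochberg adjustment, threshold 0.05). DESeq2 1.42.0, library totals, other filters, no genotype term, the colon replicates' spread and leaving out each library were alternatives. The biological coefficient of variation was 5.75%. Each gene's spread was moderated across genes, with 6.53 prior degrees of freedom against 1 residual. An SE is the absolute log2 difference over the square root of the test's F value. Genotype pairs the libraries by design of the comparison, and the labels give no number that pairs them. Ratios of 1 library to 1 library used a prior count of 2. The fits were tested on simulated data. A fold against a mix with no count used 3 counts per library as the floor. Genes named were 26 fixed genes, up to 4 per list by smallest p, the 12 largest per direction at 5 CPM or more and the interaction calls with established symbols. Other list members and genes were named after their values were seen. The comparison, the 51 gene lists and the named genes were chosen with earlier results of these data known. Of 185 genes named by rule, 41 overlap another tested gene. Some genes of the lists are not reported here.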

Additional observations from a re-analysis of the deposited data

Results flagged for a closer look

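The 5 genes whose difference between mixes was not the same in knockout and control cells (quasi-likelihood test of edgeR, Benjamini-Hochberg adjusted, spread from the colon replicates) are given here with the difference of differences, knockout minus control, in log2. Slc15a2 had -9.956 ± 0.77 (adjusted p = 2.6e-04), and it rests on the control TGF-β library, which had 0 counts against 145, 196 and 200 in the others. Gm8210, a processed pseudogene, had 8.073 ± 0.64 (adjusted p = 9.8e-04), and it rests on the control IL-23 library, with 1 count against 206, 208 and 313. These were the only 2 genes with 1 cultured library at or near 0 and the other 3 at 5 CPM or more. Nt5e had 1.27 ± 0.17 (adjusted p = 0.035). Gm8325, a pseudogene, had -3.508 ± 0.48 on 18, 79, 124 and 48 counts, and the long non-coding RNA Gm42047 had -1.416 ± 0.20 on 1118, 1439, 718 and 350 counts (adjusted p = 0.035 for both). No culture was repeated within a genotype and mix, so a difference of differences here is not separated from the spread between cultures.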

How the results depend on the processing

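The count of 9735 genes between mixes ran from 6894 (DESeq2) to 10053 (no replicate block, with the libraries of a mix taken as repeats without pairing by genotype), and from 8991 to 9323 with 1 library left out. Genes higher with the IL-23 mix numbered 3312 in DESeq2 against 4992, and 4405 calls were of at least 2-fold. At 1 CPM in place of 5 CPM, 2504 genes in the control pair and 2482 in the knockout pair were at least 2-fold higher. The interaction called 8 to 28 genes when 1 colon library was left out. Of 184 tested named genes, 174 kept direction and call in all settings run. Il17a ranged from -0.58 to 0.44 with 1 library left out (0.30 without the knockout IL-23 library). Tbx21 ranged from -0.18 to 0.70, Il10 from -0.52 to 0.094, and Ccr6 from -0.49 to 0.62 (-0.48 without the knockout TGF-β library). Ccr6 stood at -0.000319 with library totals, -0.010 in DESeq2, -0.017 without the replicate block and -0.023 without the filter. Fits with 1 library left out had no genotype term. In both mixes Il17a and Ccr6 were lower in the knockout than in the control library. The part of this in these ranges was not tested. Of list counts of 5 or more, these moved by over 1.5 times: lower chemokines, 6 to 3, higher follicular helper genes, 5 to 3, and higher interferon genes, 31 to 20, under the stricter filter, where fewer genes were tested, lower AP-1 genes, 6 to 3, in DESeq2, and higher respiratory chain genes, 16 to 8 in DESeq2 and 10 without the filter (settings counted per list after seeing the data). With 15252700 to 15922696 counts per library, genes with a few counts, such as Ifng, could not be compared.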

Other observations

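Several genes outside the lists stood apart between mixes, and all were chosen after their values were seen. The neighbouring metallothioneins Mt1 and Mt2, which bind zinc and copper, were 22.8-fold and 24.0-fold higher with the IL-23 mix, Mt1 at 57.1 and 49.3 against 1267 and 1156 CPM. Il33, an alarmin, stood at 3.62 and 4.59 against 271 and 231 CPM. Serpinf1 was 15.4-fold higher, Basp1 33.7-fold, Stom 48.4-fold and Ebf1, known as a B cell factor, 17.5-fold. Mmp13, a collagenase, and Il1a were 15.2-fold and 15.1-fold lower.

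Next to Il24 (chr1:130882074-130887454), Fcmr had 7 counts in each TGF-β library against 169 and 129. Il20 and Il19, which lie farther on, had at most 1 count in any library. Il10 and Mapkapk2 of the same stretch did not pass (log2 differences of -0.19 and 0.09, edgeR's quasi-likelihood test, adjusted p = 0.38 and 0.26). Several Ly6 genes of chromosome 15 were higher with the IL-23 mix, Ly6a 4.92-fold, Ly6g 24.3-fold and Ly6e 1.77-fold. These are close paralogs, and how the authors counted reads that fit more than 1 copy is not given in the sources used here.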
